A study of Mus musculus with 2 samples.

Results

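Mir31, Mir489 and Mir708 are microRNA genes linked to quiescent muscle stem cells, and they were chosen by name, as 3 of the 2202 microRNA genes in the files. They were measured in the gastrocnemius, a large calf muscle, of female mice aged 2 months from the B6CASTF1/J strain, a first-generation hybrid of C57BL/6J with CAST/EiJ. The study has 1 group, with no treatment or mutation named in the labels, and 2 small RNA libraries, biological replicates 2 and 1. The labels number 2 females but give the same donor code to both, so whether the SDs below reflect separate animals depends on those labels. The p-values below set 1 library against 1 library and give no independent measure of the spread between animals, whatever the labels mean. With a single condition, every comparison below sets replicate 2 over replicate 1. Of the 3 genes, Mir31 and Mir708 were detected, meaning at least 10 own-strand counts in each library, and Mir489 was not.

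Satellite cells are the stem cells of skeletal muscle. They lie between the fibre and its basal lamina, rest in a quiescent state marked by Pax7, and enter the cell cycle after injury. A microRNA pairs with messenger RNAs mainly through its seed, bases 2 to 8 from its 5′ end, and lowers their translation or stability. In mouse satellite cells, miR-31 holds back the messenger RNA of Myf5, a myogenic transcription factor that is stored untranslated during quiescence. In the same cells miR-489 represses Dek, a chromatin protein that promotes proliferation, and miR-708, which lies downstream of Notch signalling, represses Tns3 (tensin 3), an adhesion protein of migrating cells. The 3 microRNAs have also been found in other cell types, and whole muscle was sequenced here, so their counts are not those of satellite cells alone. In such bulk RNA, fewer cells of a type and less of the microRNA per cell cannot be told apart.

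The mature sequences that these genes encode are shown first because their seeds define the targets and the families discussed below. They are RefSeq entries on GRCm38.p6, matched by gene name for all 3 genes, and the capitals mark the seed.
miR-31-5p: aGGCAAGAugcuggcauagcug
miR-31-3p: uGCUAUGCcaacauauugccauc
miR-489-5p: uGUCAUAUgugugaugacacuuucu
miR-489-3p: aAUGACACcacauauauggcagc
miR-708-5p: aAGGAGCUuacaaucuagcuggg
miR-708-3p: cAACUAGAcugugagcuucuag
The files give 1 count per gene, so the 2 arms of each precursor are added together in every value. None of the 6 seeds is shared among the 3 genes.

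Each gene lies within a longer transcript of its own strand, in mm10 coordinates and GENCODE M21 annotation. Mir31 (ENSMUSG00000065408.1) is at chr4:88910557-88910662 on the minus strand, within an exon of the long intergenic noncoding gene AL805899.1. Mir489 (ENSMUSG00000070107.1) is at chr6:3721897-3722003 on the minus strand, in an intron of Calcr, the calcitonin receptor gene, which is itself a marker of quiescent satellite cells. Mir653 (ENSMUSG00000076357.2) lies 511 bp from Mir489 in Calcr, at chr6:3721301-3721385, and is also intronic. Mir708 (ENSMUSG00000076143.1) is at chr7:96249424-96249532 on the plus strand, in an intron of Tenm4, which encodes a teneurin cell adhesion protein. Neither Mir31 nor Mir708 has another microRNA gene of its strand within 10000 bp.

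The target genes named above each hold the complement of the seed in their 3′ UTR. The stretches of 22 bases, read from GENCODE M21 transcripts, are printed because they are the messenger RNA side of the pairing. Capitals mark the match to bases 8 to 2 of the microRNA, and the last letter faces its base 1.
Myf5, match for miR-31-5p: ggttgtaaatactgTCTTGCCa
Dek, first match for miR-489-3p: gctttgccctcaaaGTGTCATc
Dek, second match for miR-489-3p: tgtgttaactctaaGTGTCATa
Tns3, match for miR-708-5p: ctattccactttttAGCTCCTa
The Myf5 stretch is at chr10:107483896-107483917, the Dek stretches are at chr13:47085357-47085378 and chr13:47085327-47085348, and the Tns3 stretch is at chr11:8432679-8432700, all on the minus strand. In 3′ UTRs cut to the length of the target's own, TCTTGCC was present in 9.51% of the 9536 that reach the 1112 nt of Myf5. GTGTCAT was present in 8.05% of the 8518 that reach the 1286 nt of Dek. AGCTCCT was present in 25.0% of the 3102 that reach the 2842 nt of Tns3. Only the messenger strand was searched, none of the matches overlap, and a match of letters is no measurement of binding.

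Mir708 was the most abundant of the 3 genes, Mir31 was lower, and Mir489 was at the limit of detection. Mir708 had 216 counts in replicate 2, against 1117 in replicate 1, or 94.2 and 573 CPM (counts per 1000000 own-strand microRNA counts of a library). Its mean was 334 ± 338 CPM (SD, n = 2), which placed it 100th of the 278 detected genes. It stood 150th in replicate 2 and 74th in replicate 1. Mir31 had 12 counts in replicate 2, against 96 in replicate 1, or 5.24 and 49.2 CPM. Its mean was 27.2 ± 31.1 CPM (SD, n = 2), 220th of 278, with rank 272 in replicate 2 and 191 in replicate 1. In replicate 2 Mir31 lay close to the minimum of 10 counts, and the exact Poisson 95% interval of its level there was 2.71 to 9.15 CPM. Such intervals describe read sampling alone, because copies made by PCR do not count as separate molecules.

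Mir489 had 2 counts in replicate 2, against 0 in replicate 1, or 0.873 and 0 CPM. A library with no count still allows 3 counts, or 1.54 CPM in replicate 1 and 1.31 CPM in replicate 2. Both values were therefore at or under this floor, and no fold is given. The exact Poisson 95% interval was 0.106 to 3.15 CPM in replicate 2 and 0 to 1.89 CPM in replicate 1. Mir489 was 1 of 186 genes with 1 to 3 counts in all, while 1619 genes had none in either library. Its level was not detectable at this depth, which does not show that it is absent from the muscle.

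The order of the 3 genes was the same in both libraries. The lowest Mir708 value, 94.2 CPM in replicate 2, was above the highest Mir31 value, 49.2 CPM in replicate 1. Mir31 made up 5.26% of the joint counts of the pair in replicate 2 (95% interval by Clopper-Pearson's exact method, 2.75 to 9.01), against 7.91% in replicate 1 (6.46 to 9.58). These intervals overlap, and the 2 shares were not tested against each other. A difference in the ratio of Mir31 to Mir708 between the libraries was therefore neither shown nor excluded. Of the joint counts of Mir489 and Mir31, Mir489 took 14.3% in replicate 2 (exact 95% interval 1.78 to 42.8, from 2 and 12 counts), against none in replicate 1 (up to 3.77). Small RNA reads were not divided by length, and levels of different microRNAs also carry the efficiency with which each sequence is ligated and amplified, which the files do not measure.

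**Figure D1:**
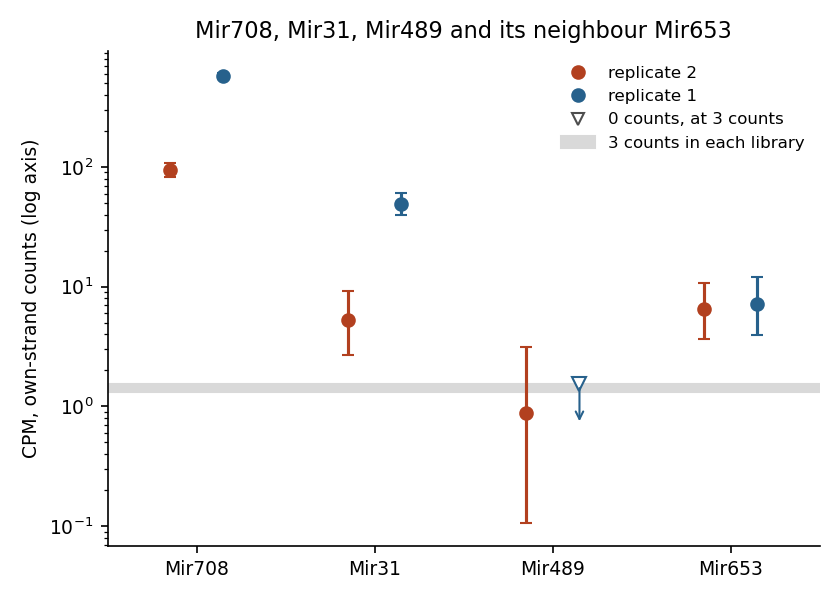
Own-strand CPM on a log axis for Mir708, Mir31, Mir489 and Mir653 in replicate 2 (left point) and replicate 1 (right point), with exact Poisson 95% intervals and a grey band at 3 counts. Mir708 and Mir31 are far lower in replicate 2, Mir489 is at 2 and 0 counts, and Mir653 is at 15 and 14 counts.

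The other microRNA gene of the Calcr intron, Mir653, was just above the detection minimum. Its 15 counts in replicate 2, against 14 in replicate 1, gave a mean of 6.86 ± 0.448 CPM (SD, n = 2), 273rd of the 278 detected genes. The 2 libraries were nearly equal for it, with a log2 ratio of −0.10 (SE 0.54, counting error; adjusted two-sided exact binomial p = 0.887). Of the counts that Mir489 and Mir653 had together, Mir489 took 11.8% in replicate 2 (95% interval by the same exact method, 1.46 to 36.4), against none in replicate 1 (up to 23.2). Mir653 was thus the more abundant of the 2 neighbours. Its exact Poisson intervals, 3.66 to 10.8 CPM in replicate 2 and 3.92 to 12.04 CPM in replicate 1, lay above those of Mir489 in the same libraries.

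Mir489 and Mir708 each share a seed with a microRNA whose gene had more counts in both libraries. Gene counts add both arms, so levels of the arms that carry the seed were not measured. The shared seeds are shown because either microRNA of a pair could match the same complement in a messenger RNA.
miR-489-3p: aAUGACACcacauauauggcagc
miR-425-5p: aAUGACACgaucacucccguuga
miR-708-5p: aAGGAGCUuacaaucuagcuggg
miR-28a-5p: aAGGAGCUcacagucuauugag
Counting from 1 at the 5′ end, miR-708-5p and miR-28a-5p are equal at 16 of 22 positions and differ by U9C, A13G, G18U, C19U, U20G and G21A, with the base of miR-708-5p first. The other pair is equal at 12 of 23 positions, the first of its 11 differences being C9G. Mir425 lies in an exon of the noncoding gene 4833445I07Rik on chromosome 9, and Mir28a in an intron of Lpp on chromosome 16. No other mature sequence in the RefSeq table has a seed of Mir31, on either arm.

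Mir28a had 4570 counts in replicate 2, against 3734 in replicate 1, and averaged 1954 ± 56.1 CPM (SD, n = 2). Its log2 ratio was 0.09 (SE 0.03; adjusted two-sided exact binomial p = 0.00692), under the 2-fold minimum used for calls. The counts of Mir28a were 21.2 times those of Mir708 in replicate 2 and 3.34 times in replicate 1. Mir708 made up 4.51% of the joint counts of the pair in replicate 2 (exact 95% interval 3.94 to 5.14), against 23.0% in replicate 1 (21.8 to 24.2). The 2 intervals do not overlap, and the 2 genes of this seed thus stood in different ratios in the 2 libraries. Mir28b, whose mature sequence carries the same 7 letters 1 base nearer its 5′ end, had 1 count in replicate 2 and 3 in replicate 1.

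Mir425 had 1605 counts in replicate 2, against 1304 in replicate 1, and averaged 684 ± 22.4 CPM (SD, n = 2), with a log2 ratio of 0.10 (SE 0.05; adjusted two-sided exact binomial p = 0.101). Mir489 therefore took 0.124% of the joint counts of its seed pair in replicate 2 (exact 95% interval 0.0151 to 0.449), against none in replicate 1 (up to 0.282). Nearly all counts of genes with the AUGACAC seed were those of Mir425.

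**Figure D2:**
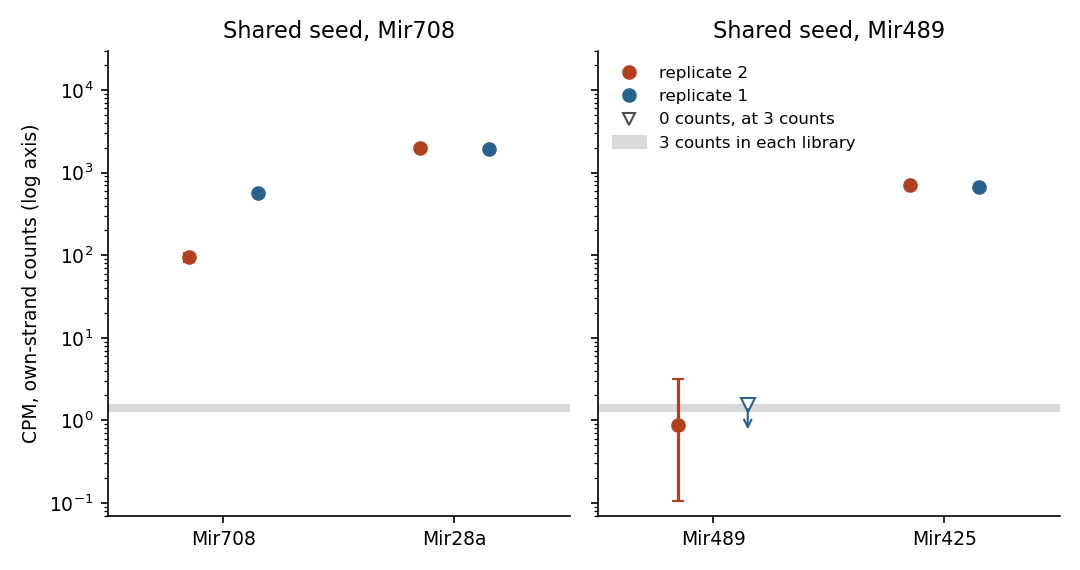
Own-strand CPM on a log axis for Mir708 with Mir28a and for Mir489 with Mir425, in replicate 2 (left point) and replicate 1 (right point), with exact Poisson 95% intervals and a grey band at 3 counts. Mir28a (1994 and 1915 CPM) and Mir425 (700.3 and 669 CPM) hardly differ between libraries, while Mir708 is at 94.2 and 573 CPM.

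Mir31 and Mir708 were both lower in replicate 2, and both passed the test between the libraries, which compares these libraries and not conditions. Mir31 was 9.18-fold lower in replicate 2 (exact binomial 95% interval 5.02 to 18.4), a log2 ratio of −3.20 with an SE of 0.44 from counting error (adjusted two-sided exact binomial p = 1.33e-19). Mir708 was 5.93-fold lower in replicate 2 (5.12 to 6.90), a log2 ratio of −2.57 with an SE of 0.11 (adjusted two-sided exact binomial p = 7.61e-174). Calls were made at an adjusted p under 0.05 and at least 2-fold, adjusted after Benjamini and Hochberg across all 278 detected genes. Of all genes tested, 9.35% were called lower in replicate 2, against 2 of the 2 detected members, which were chosen with these differences already known. Among the 278 log2 ratios, that of Mir31 was the 4th lowest and that of Mir708 the 5th, while the median was −0.03 and the SD 0.80. Their spread was accordingly wide, with an SD of 114% of the mean for Mir31 and 101% for Mir708, against a median of 16.7% over the detected genes.

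The exact binomial test counts only sampling of reads as error. With 1 library on each side, no test here can set the difference against an independent measure of the spread between animals. As an alternative, edgeR's exact test was given a biological coefficient of variation of 0.352, which was estimated from the same 2 libraries and so takes in the very differences it tests. It called Mir31 (log2 ratio −3.18, adjusted p = 0.0183) and Mir708 (log2 ratio −2.57, adjusted p = 0.0382). That test called 5 of 278 genes lower in replicate 2 (1.8%) and 7 in either direction (2.52%). The other 3 lower ones were Mir122, Mir182 and Mir183.

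**Figure D3:**
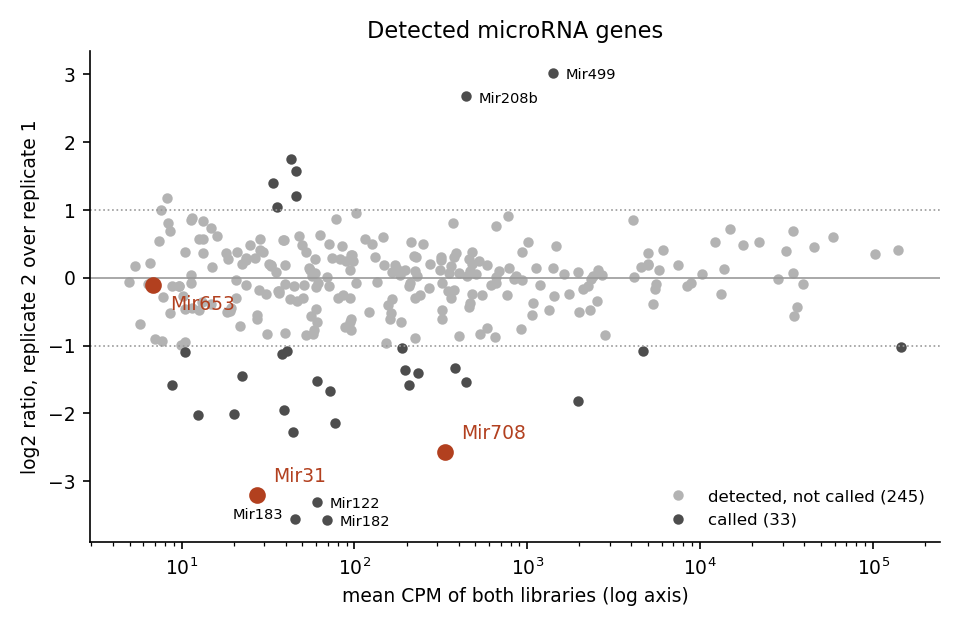
Log2 ratio of replicate 2 over replicate 1 against the mean CPM of both libraries (log axis) for the 278 detected microRNA genes, with dotted lines at 2-fold. Mir31 and Mir708 lie among the lowest ratios, with Mir122, Mir182 and Mir183, and Mir653 lies near 0.

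Among genes within 4-fold of its mean CPM, the pattern of Mir31 over the 2 libraries was nearest to that of Mir122, a liver microRNA, and of Mir183 and Mir182, a cluster of sensory and epithelial cells. Mir122 was at 25 counts in replicate 2, against 215 in replicate 1, and its log2 ratio differed from that of Mir31 by 0.10. Mir183 had 16 and 164 counts and Mir182 24 and 249 counts, in replicate 2 and in replicate 1, at differences of 0.36 and 0.38 from Mir31. Within 4-fold of its own mean, Mir708 had no neighbour this close. Of the 101 genes within 4-fold of its mean, the nearest were Mir350, with 233 counts in replicate 2 and 606 in replicate 1, and Mir223, a myeloid microRNA, with 510 and 1284. The third was Mir574, and the log2 ratios of the 3 differed from that of Mir708 by 0.99, 1.04 and 1.16. Outside that range of level, Mir137 had a log2 ratio of −2.27, nearer to the −2.57 of Mir708. With only 2 libraries, such likeness describes 1 ratio per gene.

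By mean level, Mir708 stood between Mirlet7c-2 (347 ± 39.2 CPM) and Mir484 (322 ± 100.4 CPM), and Mir31 between Mir874 (27.3 ± 7.78 CPM) and Mir298 (26.4 ± 3.32 CPM, SD, n = 2 each). The ranges of all 4 neighbours lay within those of Mir708 and Mir31, so the place of both genes in the order is not resolved beyond their own spread. let-7c has another gene copy, so the Mirlet7c-2 value may miss reads that matched both copies and is no measure of let-7c. Ranks among the detected genes likewise rest only on the reads that were counted.

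The sequence of miR-708-5p has a near copy in the annotation, which bears on how completely its reads could be counted. Gm23134 (ENSMUSG00000077990.1), a predicted microRNA gene in an intron of Blcap on the minus strand of chromosome 2, carries 22 of its 23 bases, the 1 difference being A1C. The stretch is at chr2:157562405-157562427, with capitals at the bases that match the seed.
Gm23134: cAGGAGCUuacaaucuagcuggg
miR-708-5p: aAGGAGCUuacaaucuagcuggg
Gm23134 had 0 counts in both libraries. Reads that aligned to several places, 72.3% of those listed in replicate 2 and 70.1% in replicate 1, are in no gene. Mir708 counts would leave out any read that was placed at both genes, and how many there were was not tested. The mature sequences of Mir31 and Mir489 share no stretch longer than 11 nt with another annotated microRNA precursor. On the opposite strand, Mir708 had 1 read in replicate 2 and 2 in replicate 1, and Mir31 and Mir489 had none.

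Other microRNAs linked to satellite cell quiescence or activation were measured from a list of 10, and none was called. Of 9 such genes in the files, 7 were detected, and 0 of the 7 were called in either direction, against 11.9% of all genes tested. Their median log2 ratio was 0.11, against −0.03 over all detected genes, and their log2 ratios ran from −0.61 to 0.18. Without a minimum fold, 6 of the 7 had an adjusted exact binomial p under 0.05, against 55.4% of all genes tested, 6 had an unadjusted p under 0.05, and edgeR's exact test with the estimated spread called 0. Mir27b, which restrains Pax3 in differentiating progenitors, was at 10252 CPM in replicate 2, against 10116 CPM in replicate 1. Mir195a, a repressor of cell cycle genes in quiescent satellite cells, was at 5274 CPM in replicate 2, against 4757 CPM in replicate 1. Mir127, an imprinted microRNA of the Dlk1-Dio3 region, was at 4755 CPM in replicate 2, against 4344 CPM in replicate 1. All 3 had far higher levels than Mir708, and none is restricted to satellite cells. Mir195b and Mir682 had 0 counts in both libraries.

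The microRNAs of myogenic differentiation also differed less than the 2-fold minimum. All 11 listed genes were detected and 0 were called, against 11.9% of all genes tested, with a median log2 ratio of 0.39, above the −0.03 of all detected genes. Without a minimum fold, 7 of the 11 had an adjusted exact binomial p under 0.05, near the 55.4% of all genes tested, 7 had an unadjusted one under 0.05, and edgeR's exact test with the estimated spread called 0. Mir206, the skeletal muscle microRNA that represses Pax7 as satellite cells differentiate, was at 41933 CPM in replicate 2, against 26708 CPM in replicate 1. Mir322, which promotes exit from the cell cycle, was at 7798 CPM in replicate 2, against 7025 CPM in replicate 1. Mir486, another repressor of Pax7, was at 1006 CPM in replicate 2, against 549 CPM in replicate 1. Mir486 overlaps an antisense microRNA gene, and Mir27b has a close paralog in Mir27a, and both values may miss reads that aligned to more than 1 gene. The list also holds several gene copies each of Mir1a, Mir133a and Mir26a, whose counts may miss such reads as well. The list summary includes the ratios of these copies, which rest on the reads that were counted. The log2 ratios of all 11 lay above 0, on the other side of Mir31 and Mir708, while 142 of all 278 detected genes lay below 0. Gene copies and genes of a cluster are not separate observations, so the 11 are not 11 independent directions.

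**Figure D4:**
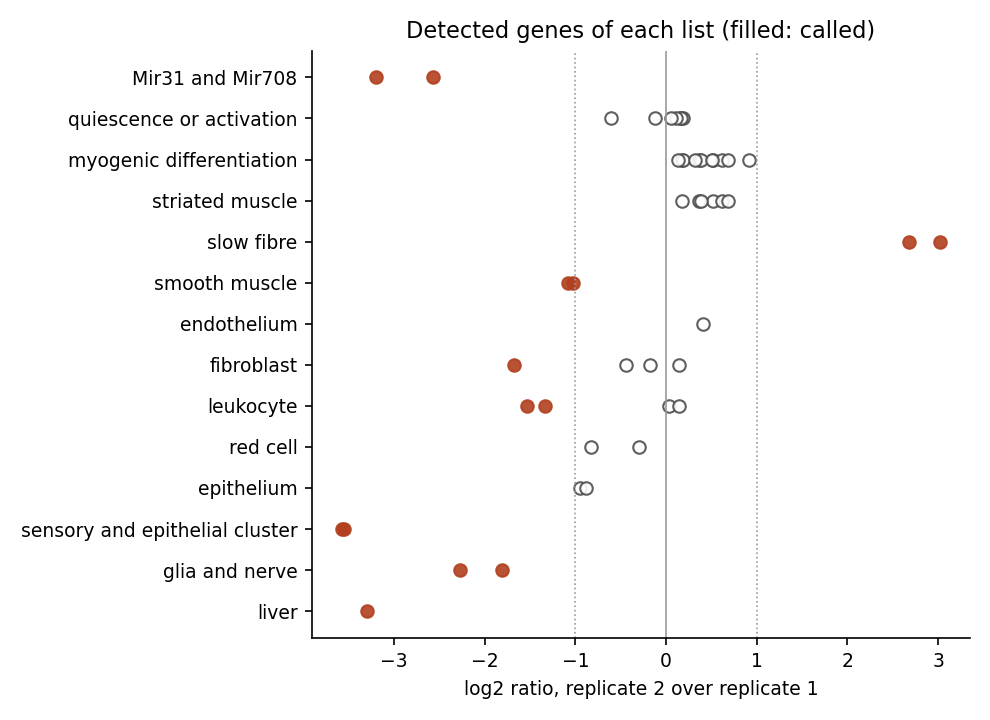
Log2 ratio of replicate 2 over replicate 1 (horizontal axis) for each detected gene of Mir31 and Mir708 (top row) and of the lists below it, with filled points for called genes and dotted lines at 2-fold. The other satellite cell and myogenic genes lie between −0.61 and 0.91, while the sensory and epithelial, liver, and glia and nerve genes lie to the left with Mir31 and Mir708.

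Several markers of other cells and tissues were lower in replicate 2, as Mir31 and Mir708 were. The sensory and epithelial cluster of Mir182, Mir183 and Mir96 summed to 19.6 CPM in replicate 2 and 224 CPM in replicate 1, with 2 of 2 detected genes called lower. The epithelial list summed to 164 CPM in replicate 2 and 338 CPM in replicate 1. Mir203 held most of this sum, and 0 of the 2 detected genes of the list were called. The other detected gene, Mir200c, had 16 counts in replicate 2 and 27 in replicate 1 (adjusted two-sided exact binomial p = 0.0788). Mir141, Mir200a and Mir200b, which were not detected, were at 0 in replicate 2 with 6, 15 and 9 counts in replicate 1. The liver microRNA Mir122 was at 10.9 CPM in replicate 2 and 110.2 CPM in replicate 1. The glia and nerve list summed to 877 CPM in replicate 2 and 3151 CPM in replicate 1, almost wholly Mir338. Of its 10 genes, 2 of 2 detected were called lower, and 0 with edgeR's estimated spread. Mir219a-1 had 7 counts in each library, and Mir219a-2 had 10 in replicate 2 and 7 in replicate 1. The 3 Mir9 and 3 Mir124a genes were at 0 in both libraries. Mir219a, Mir9 and Mir124a are each listed as several gene copies, and a read matching more than 1 copy would go uncounted. Their low counts and values of 0 therefore cannot show that these microRNAs are scarce or absent in the muscle. The part of these cells in the result for Mir31 and Mir708 was not tested.

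Markers of vessels, connective tissue, blood and muscle fibres differed in both directions. The smooth muscle list summed to 97334 CPM in replicate 2 and 202581 CPM in replicate 1 (2 of 2 called lower), and the endothelial Mir126a was at 156853 and 120880 CPM (not called). The fibroblast list summed to 31836 CPM in replicate 2 and 43516 CPM in replicate 1, mostly Mir21a, which was not called. Of its 4 detected genes, 1 was called lower and 1 had a log2 ratio above 0. Leukocyte genes summed to 2461 CPM in replicate 2 and 3151 CPM in replicate 1. Of the 4, 2 were called lower, and the other 2 had log2 ratios above 0 and were not called. The red cell genes summed to 460 CPM in replicate 2 and 787 CPM in replicate 1 (0 of 2 called). Striated muscle markers were detected for 6 of 6 genes, at 42283 CPM in replicate 2 and 26958 CPM in replicate 1, and none was called. Nearly all of this sum was Mir206, at 41933 CPM in replicate 2 and 26708 CPM in replicate 1. The list also holds gene copies of Mir1a and Mir133a, whose counts may miss reads that aligned to more than 1 copy. The part of Mir206 in this sum is therefore no measure of its part among the muscle's own microRNAs. The slow fibre microRNAs Mir208b and Mir499 summed to 3258 CPM in replicate 2 and 437 CPM in replicate 1, and both were called higher. With edgeR's estimated spread, 0 genes of the smooth muscle, fibroblast and leukocyte lists were called, while both slow fibre genes were. How these marker differences bear on Mir31 and Mir708 was likewise not tested.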

How the data were processed

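Small RNA libraries of whole gastrocnemius were deposited as raw counts of reads per microRNA gene, for either strand, the gene's own strand and the opposite strand. Reads were assigned to mm10 with GENCODE M21, per the notes deposited with each library, and no aligner or counter is named there or in the labels (not given in the sources used here). Own-strand counts were used, 2291821 in replicate 2 and 1950204 in replicate 1, 15.9% and 20.7% of the reads listed. Unmapped, multiply aligned, unassigned and ambiguous reads name no gene and were left out. All 2202 identifiers matched GENCODE M21.

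CPM values were computed over own-strand counts. Libraries were compared with a two-sided conditional exact binomial test on TMM-scaled totals (edgeR 4.0.16, R 4.3.3), with Benjamini-Hochberg adjustment, and the code was checked on simulated data. Log2 ratios carry no added prior count. A quasi-likelihood test needs a second group and was not run. Alternatives changed scaling (DESeq2 1.42.0), strand, count minimum, dispersion, fold minimum and denominator. Other steps ran in Python 3.11.15 with scipy 1.17.1.

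The members, lists and tests were chosen with earlier results of these data known. Named genes are the 3 members, same-seed genes, microRNA genes within 10000 bp, adjacent genes in level, the 3 genes nearest in log2 ratio within 4-fold of a member's level, and at most 3 of the most abundant genes of a list. Gm23134, Mir28b and the marker genes printed beyond these were chosen after their values were seen. Mir1a, Mir133a and Mir26a are named only for their gene copies. Mir497a and Mir142hg were not found by name and are not analysed here.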

Additional observations from a re-analysis of the deposited data

How the results depend on the processing

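Under all 8 alternatives tried, Mir31 and Mir708 stayed lower in replicate 2 and called, with log2 ratios of −3.23 to −3.16 for Mir31 and −2.60 to −2.53 for Mir708. Their highest adjusted p values, 0.0183 and 0.0382, came from edgeR's exact test with the estimated spread. Each call sets 1 library against 1 library, and that spread comes from the same 2 libraries, so these calls are no independent support beyond read sampling. Dropping the fold minimum could not undo a call, and changes of scaling, strand and count minimum hardly moved the log2 ratios. Only the 2 edgeR settings put the calls to a harder test. The number of called genes, 33 of 278 in the test as reported, was 7 with that spread and 154 without a minimum fold, because larger assumed error and a lower bar change what passes. With every gene of at least 1 count tested, Mir489 was not called (adjusted exact binomial p = 0.721 over 583 genes). Leaving out 1 replicate gives the other library's level, 5.24 and 49.2 CPM for Mir31, 94.2 and 573 CPM for Mir708, and 0.873 and 0 CPM for Mir489, and leaves no comparison. Per 1000000 of all reads listed, the means were 5.52, 66.9 and 0.0696 for Mir31, Mir708 and Mir489. No paired analysis was possible because there is 1 group. Depth limits Mir489 most, as 3 counts are worth 1.31 CPM in replicate 2 and 1.54 CPM in replicate 1.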
